A study of Mus musculus with 11 samples.

Results

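Growth factor receptor tyrosine kinases are the receptors through which EGF, FGF, neuregulin, insulin, IGF and HGF act on cells. The 10 genes described here are the ErbB receptors Egfr, Erbb2, Erbb3 and Erbb4, the FGF receptors Fgfr1, Fgfr2 and Fgfr3, the insulin-family receptors Insr and Igf1r, and the HGF receptor Met. They were chosen by name, with earlier results of these data known. Their symbols were matched through the GENCODE annotation to the gene identifiers of the deposited tables. All 10 were found among the 53801 genes listed in each table, and all 10 passed the filter on low counts that left 15920 genes for testing. The RNA of 11 libraries came from primary neural stem cells (NSCs) of the mouse hippocampus that were kept for 7 days in 1 of 4 conditions. In proliferation medium, which held the growth factors EGF and bFGF at 20 ng/ml each beside 1% B27, there were 3 libraries treated with 1 µM 4HBP and 3 treated with the EtOH vehicle. In differentiation medium, which held neither added growth factor and 2% B27, there were 3 libraries treated with 1 µM 4HBP and 2 treated with EtOH. 4HBP is named 4-hydroxybenzophenone in the study and 4-hydroxybenzoic acid in the labels. No group carried a genetic change. The labels do not say whether replicates were separate cultures or came from separate animals, so the p-values below measure only the spread between these libraries, which may be technical.

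A receptor tyrosine kinase binds its ligand outside the cell and works as a pair of receptors, in which tyrosines of the inner parts are phosphorylated. The phosphotyrosines recruit adaptors that start the RAS-MAPK and PI3K-AKT cascades. Among the ErbB receptors, Egfr binds EGF, Erbb3 and Erbb4 bind neuregulins, and Erbb2 has no known soluble ligand of its own and works as a partner of the others. EGF and bFGF are the mitogens with which NSCs are grown, and B27, a serum-free supplement, contains insulin. In the brain, Fgfr3 is known from radial glia and astrocytes, and Erbb3 from cells of the oligodendrocyte lineage.

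Library totals lay between 20822921 and 23438463 expected counts, so that 3 counts, the smallest amount taken as detectable, equal 0.128 to 0.144 CPM (counts scaled to library size). The NSC markers were present throughout, with a summed level of 4258 to 4971 TPM (abundance per transcript length and library size) over 10 genes in proliferation medium and of 2479 to 2609 in differentiation medium. The 10 astrocyte markers summed to 2100 to 3721 and 6713 to 7208 TPM, the 14 oligodendrocyte-lineage markers to 1888 to 3271 and 8708 to 9221 TPM, and the 13 neuron markers to 475 to 559 and 587 to 627 TPM in proliferation and differentiation medium respectively, and none of these markers was at 0 in every library. Microglial, endothelial and mural or fibroblast markers summed to at most 9.39 TPM per list in any library, and the endothelial markers Cdh5, Cldn5 and Sox17 were at 0 in all 11. In proliferation medium, 4HBP replicate 3 lay apart from the other 4HBP libraries (a chi-square of 23.5 and 21.2 per gene against them, where they had 5.24 between them), and receptor calls that change without it are given with and without it. None of the libraries of a group were alike within sampling noise.

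The starts of 3 of the receptors are shown because these genes had the largest differences between the media in their response to 4HBP. The windows are RefSeq sequences of GRCm38.p6 that run from 250 bases before to 50 bases after the annotated start, read along the gene's strand, and the RefSeq start of Fgfr2 lies inside its longer GENCODE span. Windows were found for 7 of the 10 receptors. Capitals mark GGGCGG, the GC box bound by SP factors, in either orientation, and CACGTG, the palindromic E-box.
Fgfr2, chr7:130266759-130267058, minus strand: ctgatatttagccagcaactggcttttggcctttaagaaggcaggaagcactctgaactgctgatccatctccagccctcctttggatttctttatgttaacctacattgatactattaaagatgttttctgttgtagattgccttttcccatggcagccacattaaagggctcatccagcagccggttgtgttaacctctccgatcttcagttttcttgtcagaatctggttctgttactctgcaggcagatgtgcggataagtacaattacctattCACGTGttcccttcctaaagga
Igf1r, chr7:67952007-67952306, plus strand: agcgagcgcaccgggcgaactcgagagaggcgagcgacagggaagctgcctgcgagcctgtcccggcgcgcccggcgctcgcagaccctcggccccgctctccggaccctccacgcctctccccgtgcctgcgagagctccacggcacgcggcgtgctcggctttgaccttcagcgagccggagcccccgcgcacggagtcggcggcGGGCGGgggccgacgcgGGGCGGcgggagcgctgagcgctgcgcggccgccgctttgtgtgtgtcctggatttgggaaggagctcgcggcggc
Erbb2, chr11:98412234-98412533, plus strand: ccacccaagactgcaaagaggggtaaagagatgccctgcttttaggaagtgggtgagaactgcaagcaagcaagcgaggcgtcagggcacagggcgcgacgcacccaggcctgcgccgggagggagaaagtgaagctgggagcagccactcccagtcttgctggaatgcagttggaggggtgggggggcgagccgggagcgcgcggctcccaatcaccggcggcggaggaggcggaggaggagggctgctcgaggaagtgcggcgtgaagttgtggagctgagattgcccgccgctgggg
The Fgfr2 window had a GC content of 43.7% and 4 CpG dinucleotides, below the medians of 52.7% and 7 over all 32851 windows of the same length, and held 1 CACGTG, which 7.2% of all windows contain. The Igf1r window had a GC content of 76.0% with 48 CpG and 2 GGGCGG, a motif present in 35.7% of all windows. The Erbb2 window had a GC content of 66.0% and 21 CpG and held neither motif. TATAAA, the TATA box letters, was searched on either strand too, is present in 13.6% of all windows, and was in none of the 8 windows of the receptors.

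Fgfr1 and Fgfr3 had the highest mean levels of the 10 receptors in every group, and the place of Fgfr2 and Egfr behind them differed between the media. In EtOH-treated proliferating NSCs, Fgfr1 had a level of 83.8 TPM ± 2.62 (SD, n = 3), Fgfr3 of 81.2 ± 2.54, Egfr of 48.1 ± 5.63 and Fgfr2 of 45.3 ± 2.27. Insr followed with 12.9 ± 2.47, then Erbb4 with 6.91 ± 1.19, Igf1r with 4.69 ± 0.309, Erbb2 with 3.85 ± 0.211 and Met with 2.42 ± 0.669. Erbb3 was the lowest, at 0.737 ± 0.222 TPM, from 43 to 80 counts per library. In this order, the ranges of Fgfr1 and Fgfr3 overlapped, as did those of Egfr and Fgfr2, so these neighbours did not differ beyond their spread, whereas all other neighbours were apart.

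With 4HBP in proliferation medium, the order began with Fgfr1 (86.6 TPM ± 3.82, n = 3) and Fgfr3 (64.3 ± 2.70), which no longer overlapped, followed by Egfr (39.9 ± 9.29), Fgfr2 (25.6 ± 5.06) and Insr (16.4 ± 1.40). Igf1r (6.11 ± 1.74), Erbb4 (6.10 ± 1.82) and Erbb2 (6.06 ± 0.664) overlapped, and Met (3.36 ± 0.655) and Erbb3 (0.653 ± 0.0503) stayed lowest. In EtOH-treated differentiation cultures, Fgfr1 (179 TPM ± 3.24, n = 2), Fgfr3 (142 ± 0.877) and Fgfr2 (81.4 ± 0.573) were the 3 highest, ahead of Egfr (48.9 ± 1.31), and Erbb4 (25.2 ± 2.31) stood above Insr (18.7 ± 0.969) and Igf1r (13.7 ± 0.523). Erbb2 (7.16 ± 0.559) and Erbb3 (6.08 ± 0.226) were close, and Met (1.75 ± 0.516) was last, with no overlap between neighbours. With 4HBP in differentiation medium the order was the same, and only Erbb2 (6.74 ± 0.282, n = 3) and Erbb3 (6.18 ± 0.299) overlapped. The FGF receptors made up 70.9% to 74.8% of the summed TPM of the 10 receptors in EtOH-treated proliferating cultures, 65.3% to 72.9% with 4HBP, and 76.7% to 77.2% in differentiation medium with either treatment. The summed TPM itself was 287 to 294, 241 to 272, 522 to 527 and 473 to 499 in proliferation with EtOH, proliferation with 4HBP, differentiation with EtOH and differentiation with 4HBP.

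**Figure D1:**
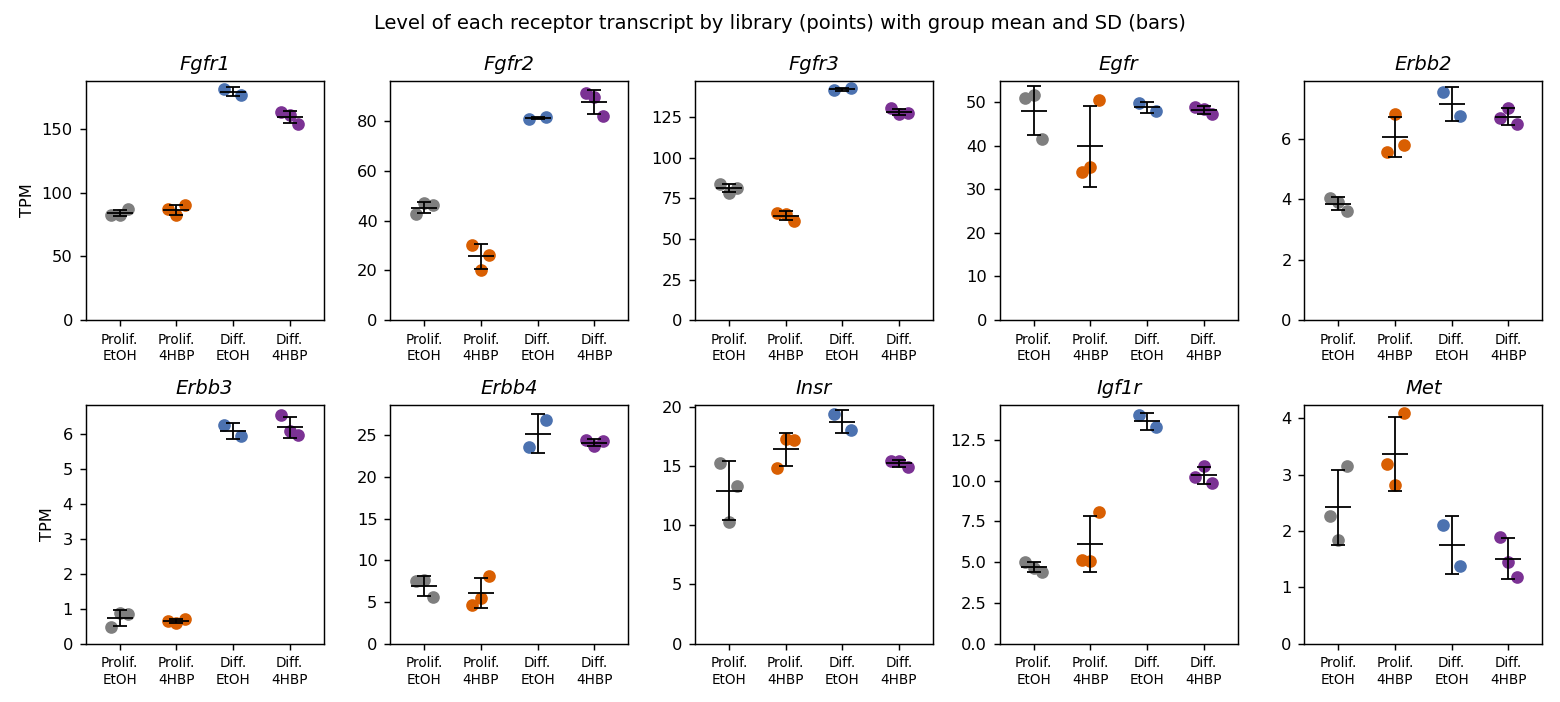
Level of each of the 10 receptor transcripts in TPM (vertical axis, starting at 0, with a scale of its own in each panel) in every library (points), with the group mean and SD (bars), for 3 EtOH and 3 4HBP libraries in proliferation medium and 2 EtOH and 3 4HBP libraries in differentiation medium. Fgfr2 is lower in the 4HBP than in the EtOH proliferation libraries (20.2 to 30.3 against 42.7 to 46.9 TPM), and Erbb3 rises from under 1 TPM in proliferation medium to about 6 TPM in differentiation medium.

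The first question was which receptors responded to 4HBP while the NSCs proliferated. Fgfr2 and Fgfr3 fell, Erbb2 and Insr rose, and the other 6 receptors did not pass the test, so that 4 of the 10 were called at an adjusted p under 0.05 (edgeR's quasi-likelihood test, Benjamini-Hochberg over 15920 genes), where 6.45% of all tested genes were, 3.22% as higher and 3.23% as lower. The largest change was that of Fgfr2, whose level was 0.56-fold that in EtOH. The median absolute log2 fold change of the 10 was 0.34, against 0.18 over all tested genes. In this bulk RNA, fewer cells of a type and less RNA per cell cannot be told apart.

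Fgfr2, a receptor for several FGFs, spans chromosome 7 from 130162451 to 133123350 on the minus strand in the GENCODE vM21 annotation of GRCm38. It had 75.4, 88.8 and 83.8 TMM-normalised CPM in the EtOH libraries and 52.8, 40.2 and 45.8 in the 4HBP libraries. All 4HBP libraries lay below all EtOH libraries, and the log2 fold change was -0.84 (SE 0.107, adjusted p = 0.00546). The annotated span overlaps 36 other genes on the same strand, 14 of them protein-coding, and the Fgfr2 count was not a whole number in any of the 11 libraries, so some of its reads were shared with other features and its level is uncertain to that extent. Fgfr3, on chromosome 5 from 33721674 to 33737068 (plus strand), went from 133, 126 and 135 CPM in EtOH to 108, 111 and 89.4 in 4HBP, again with no overlap (log2 fold change -0.36, SE 0.0898, adjusted p = 0.0477). Fgfr1, the third FGF receptor, on chromosome 8 from 25513654 to 25575718 (plus strand), had 215 to 237 CPM in EtOH and 221 to 238 in 4HBP, and these ranges overlapped almost wholly (log2 fold change 0.01, SE 0.0719, adjusted p = 0.945).

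Of the ErbB receptors, Erbb2 was the one that passed the test. Erbb2 lies on chromosome 11 from 98412470 to 98437716 (plus strand), and its level was 14.01, 14.26 and 13.64 CPM in EtOH and 20.97, 19.54 and 19.82 CPM in 4HBP, a rise of 1.44-fold with narrow spread in both groups (log2 fold change 0.53, SE 0.0969, adjusted p = 0.0173). Egfr, the receptor of the EGF in the medium (chromosome 11 from 16752203 to 16918158, plus strand), had 227, 275 and 228 CPM in EtOH and 177, 187 and 247 in 4HBP. The third 4HBP library lay inside the EtOH range, and the difference did not pass the test (log2 fold change -0.26, SE 0.131, adjusted p = 0.279). Without that library it was -0.42 (adjusted p = 0.0251). The neuregulin receptors Erbb4 (chromosome 1 from 68032186 to 69108059, minus strand; log2 fold change -0.24, SE 0.153, adjusted p = 0.382) and Erbb3 (chromosome 10 from 128567523 to 128589652, minus strand; -0.21, SE 0.26, adjusted p = 0.689) overlapped between the treatments, and Erbb3 rested on 43 to 80 counts per library.

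The insulin-family receptors and Met all had higher mean levels with 4HBP, but only Insr passed the test. Insr (chromosome 8 from 3122061 to 3279617, minus strand) had 71.0, 64.9 and 76.0 CPM in EtOH and 86.0, 86.1 and 98.3 in 4HBP, without overlap (log2 fold change 0.35, SE 0.0866, adjusted p = 0.0442). Igf1r, the receptor of IGF1 and IGF2 (chromosome 7 from 67952827 to 68233668, plus strand), had 40.6, 40.4 and 36.5 CPM in EtOH and 45.1, 43.5 and 59.5 in 4HBP. Its groups did not overlap, but the third 4HBP library was far above the others and the test was not passed (log2 fold change 0.33, SE 0.121, adjusted p = 0.135, and 0.18 without that library, adjusted p = 0.229). Met (chromosome 6 from 17463800 to 17573980, plus strand) had 10.5, 8.34 and 14.5 CPM in EtOH and 14.1, 12.2 and 17.9 in 4HBP, which overlapped (log2 fold change 0.40, SE 0.209, adjusted p = 0.287). In all, 5 of the 10 receptors had no overlap between the treatments, against 29.5% of all tested genes.

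The calls differed in how much they depended on single libraries. Fgfr2 was called without any 1 of the 6 libraries (adjusted p 0.00482 to 0.0323). The Erbb2 call held without 4HBP replicate 3 or EtOH replicate 3 (adjusted p = 0.0165 and 0.0422) and was lost without any of the other 4 (0.0505 to 0.0816), with a log2 fold change of 0.49 to 0.55 throughout. Fgfr3 kept its call only without 4HBP replicate 3 (log2 fold change -0.27, adjusted p = 0.0373) and had adjusted p-values of 0.074 to 0.167 without any of the other 5 libraries. Insr kept its call only without EtOH replicate 3 (adjusted p = 0.0478) and otherwise had 0.0565 to 0.18. With limma on log2(CPM+1), the study's own scale, Erbb2 was called (adjusted p = 0.02), and Fgfr2 was not (log2 fold change -0.80, adjusted p = 0.103), nor were Fgfr3 (0.181) and Insr (0.211).

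Cell-type markers moved in the same comparison. Of the 10 astrocyte markers, 6 fell with 4HBP and none rose, where 3.23% of all tested genes fell, and their summed level was 2930 to 3721 TPM in the EtOH and 2100 to 2629 TPM in the 4HBP libraries, which did not overlap. The count of 6 was 8 without 4HBP replicate 3 and 6 without EtOH replicate 3, but 4 and 3 without 4HBP replicates 1 and 2 and 1 and 2 without EtOH replicates 1 and 2. With limma on log2(CPM+1) it was 0, with 8 lower at an unadjusted p under 0.05. Gjb6 and Agt, a gap junction protein and angiotensinogen, had the largest falls (log2 fold changes -2.37 and -1.54). Of the 10 NSC markers, 1 fell and none rose, and these counts were the same without any 1 of the 6 libraries. Their summed level was 4707 to 4971 TPM in the EtOH and 4258 to 4631 TPM in the 4HBP libraries, which did not overlap. No oligodendrocyte-lineage, neuron or cycling marker passed the test with edgeR, although 3 of 14, 0 of 11 and 6 of 10 were lower at an unadjusted p under 0.05 and DESeq2 called 1, 0 and 1 lower. Cycling markers summed to 462 to 488 TPM in EtOH and 259 to 435 TPM in 4HBP. The part of these shifts in the values of Fgfr2, Fgfr3 and the other receptors was not tested.

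**Figure D2:**
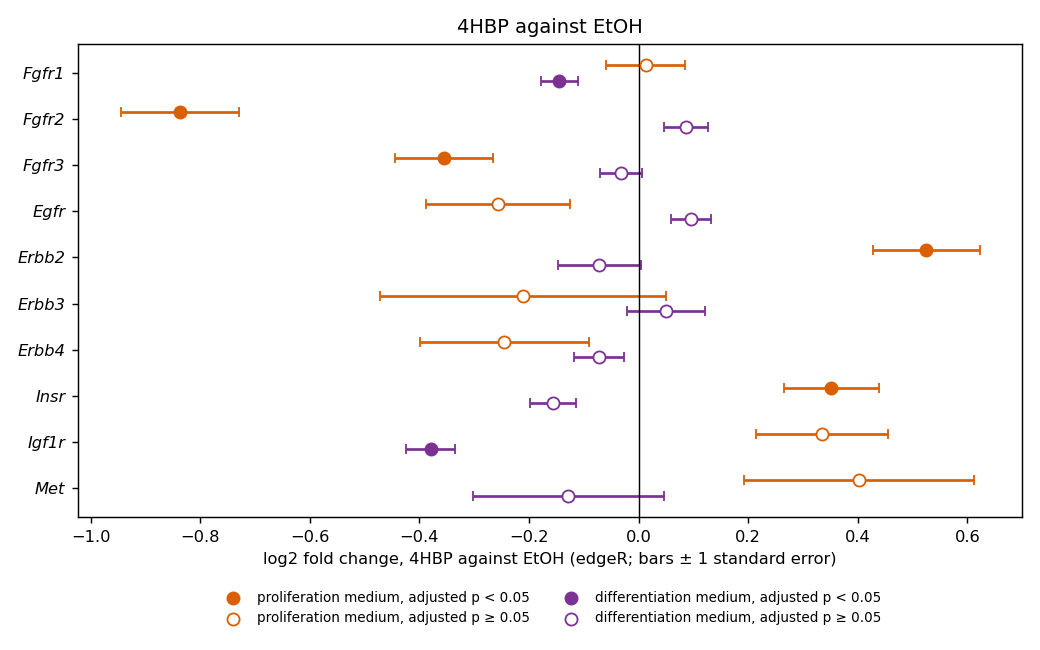
Log2 fold change of each receptor with 4HBP against EtOH (horizontal axis, edgeR, bars ± 1 standard error) in proliferation medium (orange, 3 against 3 libraries) and differentiation medium (purple, 3 against 2), with filled points where the adjusted p was under 0.05. Fgfr2 has the largest change, at -0.84 in proliferation medium, and lies at 0.09 in differentiation medium, and the bars in differentiation medium are shorter.

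In differentiation medium, other receptors were called with 4HBP than in proliferation medium. Igf1r and Fgfr1 fell, no receptor rose, and 2 of the 10 were thus called, against 2.27% of all tested genes (1.23% higher and 1.04% lower), with a median absolute log2 fold change of 0.09 for the 10 and for all tested genes alike. Igf1r had 82.6 and 77.4 CPM in the EtOH libraries and 61.6, 60.7 and 62.1 in the 4HBP libraries. The groups were well apart, with a log2 fold change of -0.38 (SE 0.0448, adjusted p = 0.000407), and the call held without any 1 of the 5 libraries (adjusted p 0.000741 to 0.0175). Fgfr1 had 384 and 378 CPM in EtOH and 351, 349 and 335 in 4HBP, a difference of 0.90-fold (log2 fold change -0.15, SE 0.0337, adjusted p = 0.0359). That call held only without 4HBP replicate 1 (adjusted p = 0.0435) and was lost without any of the other 4 libraries (0.0843 to 0.302).

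Insr showed a drop of the same kind that did not pass the test, from 86.9 and 90.4 CPM in EtOH to 78.2, 80.8 and 79.6 in 4HBP (log2 fold change -0.16, SE 0.042, adjusted p = 0.0686). Fgfr2 had 114 and 119 CPM in EtOH and 124, 122 and 124 in 4HBP (log2 fold change 0.09, adjusted p = 0.317), and the other 6 receptors had log2 fold changes from -0.13 (Met) to 0.10 (Egfr) with adjusted p-values of 0.215 and above. The treatments did not overlap for 5 of the 10 receptors, against 32.6% of all tested genes. The 5 differentiation libraries varied little (common biological coefficient of variation 0.0372, against 0.119 in proliferation medium). With all 11 libraries in 1 fit, which lends these libraries the larger spread, none of the 10 receptors was called in differentiation medium with edgeR, nor was any other gene (644 had an unadjusted p under 0.05), and limma on log2(CPM+1) called none either, with 2 higher and 3 lower at an unadjusted p under 0.05. Of the 10 astrocyte markers, Glul, glutamine synthetase, was the 1 that fell (log2 fold change -0.13, adjusted p = 0.0259), and the list summed to 7165 to 7208 TPM in EtOH and 6713 to 6924 in 4HBP. Of the 10 cycling markers, Ccnb1, a mitotic cyclin, rose (0.50, adjusted p = 0.0475), with 5 of 10 higher at an unadjusted p under 0.05 and sums of 146 to 152 TPM in EtOH and 157 to 170 TPM in 4HBP. Of the 10 NSC markers, Fabp7, a fatty acid-binding protein, rose (0.24, adjusted p = 0.0184). These 3 markers are named after their values were seen, and the part of the markers in the receptor values was not tested.

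Whether the response to 4HBP differed between the media was tested directly, as an interaction over all 11 libraries. It did for 4 of the 10 receptors, against 4.49% of all tested genes (2.01% with the more positive and 2.48% with the more negative effect in proliferation medium). In this fit the media share 1 estimate of the spread. The common biological coefficient of variation was 0.0907, below the 0.119 of proliferation medium and above the 0.0372 of differentiation medium. The adjusted p-values thus understate the spread in proliferation medium. The effect on Fgfr2 was more negative in proliferation medium, by -0.92 on the log2 scale (SE 0.131, adjusted p = 0.00319), and this held without any 1 of the 11 libraries. The effects on Igf1r, Erbb2 and Insr were more positive in proliferation medium, by 0.71 (SE 0.149, adjusted p = 0.0187), 0.60 (SE 0.111, adjusted p = 0.0112) and 0.51 (SE 0.106, adjusted p = 0.0187). Igf1r thus had a positive difference in 1 medium that did not pass the test and a fall in the other, while its difference between the media did pass. The Erbb2 call was lost without EtOH replicate 1 of differentiation medium (adjusted p = 0.089), and those of Igf1r and Insr were lost without any of the 5 differentiation libraries (adjusted p 0.0518 to 0.11 and 0.0511 to 0.11). For Egfr, the difference was -0.35 (adjusted p = 0.257), and -0.51 (adjusted p = 0.0108) without 4HBP replicate 3 of proliferation medium. For Fgfr3, it was -0.32 (adjusted p = 0.125), so the fall of Fgfr3 in proliferation medium was not shown to be particular to it.

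The second question was how the receptors differed between the media. These comparisons use the same libraries as the comparisons of 4HBP above, so their values are not independent of them. In EtOH-treated cultures, all 10 receptors passed the test, 8 of them higher and 2 lower in differentiation medium, where 61.5% of all tested genes passed, 30.8% higher and 30.7% lower. No receptor overlapped between the media, as was so for 76.3% of all tested genes. Erbb3 rose most, followed by Erbb4 and Igf1r, while Met and Egfr fell. The median log2 fold change of the 10 was 0.53, against 0.03 over all tested genes.

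Erbb3, which pairs with Erbb2 to signal from neuregulins, had 2.10, 3.95 and 3.92 CPM in proliferating and 20.81 and 19.89 CPM in differentiating EtOH cultures, a 6.12-fold rise (log2 fold change 2.61, SE 0.206, adjusted p = 4.25e-06). Erbb4 had 60.8, 64.8 and 46.6 CPM against 142 and 150, a rise of 2.55-fold (log2 fold change 1.35, SE 0.118, adjusted p = 8.18e-06). For both neuregulin-binding receptors, every differentiation library lay above every proliferation library. Igf1r rose 2.04-fold, from 36.5 to 40.6 CPM to 77.4 to 82.6 CPM (log2 fold change 1.03, SE 0.0769, adjusted p = 2.96e-06). The 3 FGF receptors rose by log2 fold changes of 0.75 (Fgfr1, SE 0.0623), 0.57 (Fgfr3, SE 0.0604) and 0.49 (Fgfr2, SE 0.079), with adjusted p-values of at most 0.000457. Erbb2 (0.41, SE 0.098, adjusted p = 0.00484) and Insr (0.33, SE 0.0797, adjusted p = 0.00551) rose least. The Erbb2 call was lost without EtOH replicate 1 of differentiation medium (adjusted p = 0.0766) and that of Insr without EtOH replicate 2 (0.0611).

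Met and Egfr went the other way. Met had 10.5, 8.34 and 14.5 CPM in proliferating and 6.61 and 4.30 CPM in differentiating EtOH cultures (log2 fold change -1.03, SE 0.255, adjusted p = 0.00597). Its call was lost without EtOH replicate 2 of differentiation medium (-0.75, adjusted p = 0.0653). Egfr had 227, 275 and 228 CPM in proliferation and 172 and 178 CPM in differentiation medium (log2 fold change -0.47, SE 0.0896, adjusted p = 0.00128). The direction for Egfr depended on the scale, because its TPM was 48.1 ± 5.63 (n = 3) and 48.9 ± 1.31 (n = 2), a log2 ratio of 0.02. On the TPM scale, the median log2 ratio of all tested genes was itself 0.40 between the media, so that Egfr lay 0.38 below that median, and on the scale of library totals alone the median shift was 0.11. Met was lower on each of these scales, and the other 8 receptors were higher on each.

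Under 4HBP, 8 of the 10 receptors passed the test between the media, 6 higher and 2 lower in differentiation medium, where 65.3% of all tested genes passed, 32.4% higher and 32.9% lower. The media did not overlap for 9 of the 10, against 71.6% of all tested genes. Erbb3 (log2 fold change 2.87, SE 0.108, adjusted p = 8.8e-08), Erbb4 (1.52, SE 0.121), Fgfr2 (1.42, SE 0.0918), Fgfr3 (0.89, SE 0.083), Fgfr1 (0.59, SE 0.055) and Igf1r (0.32, SE 0.11, adjusted p = 0.0306) were higher. Fgfr2 went from 40.2 to 52.8 CPM in proliferating to 122 to 124 CPM in differentiating cultures. Met (-1.56, SE 0.161) and Insr (-0.18, SE 0.0675, adjusted p = 0.0403) were lower, while Erbb2 (-0.18, SE 0.0747, adjusted p = 0.054, and -0.20 with adjusted p = 0.042 without 4HBP replicate 3 of proliferation medium) and Egfr (-0.12, SE 0.113, adjusted p = 0.363) did not pass. The differences between these values and those in EtOH are the same quantities as the interaction above, which passed for Fgfr2, Igf1r, Erbb2 and Insr. The call of Igf1r was lost without any library but 4HBP replicate 3 of proliferation medium (adjusted p 0.07 to 0.104), and that of Insr without any of the 3 differentiation libraries (0.086 to 0.12). Without 4HBP replicate 3 of proliferation medium, Igf1r was at 0.47 (adjusted p = 1.46e-06) and Egfr at 0.04 (adjusted p = 0.427). On the TPM scale, where the median of all tested genes was shifted by 0.33, Egfr had a log2 ratio of 0.27 and Erbb2 of 0.15.

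The cell-type markers differed widely between the media. Of the 14 oligodendrocyte-lineage markers, 13 were higher in EtOH-treated differentiation cultures and 1, Opalin, was lower, with summed levels of 2617 to 3271 TPM in proliferation and 8708 to 9221 TPM in differentiation medium. Of the 10 astrocyte markers, 8 rose and 2 fell, namely Aldh1l1 (log2 fold change -1.59) and Gfap (-0.62), and of the 10 NSC markers, 2 rose and 7 fell. Of the 11 tested neuron markers, 8 rose and 2 fell, and all 10 cycling markers fell. These counts stand beside the 61.5% of all tested genes that passed in this comparison. The part of these marker shifts in the values of Erbb3, Erbb4, Fgfr3 and the other receptors was not tested.

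**Figure D3:**
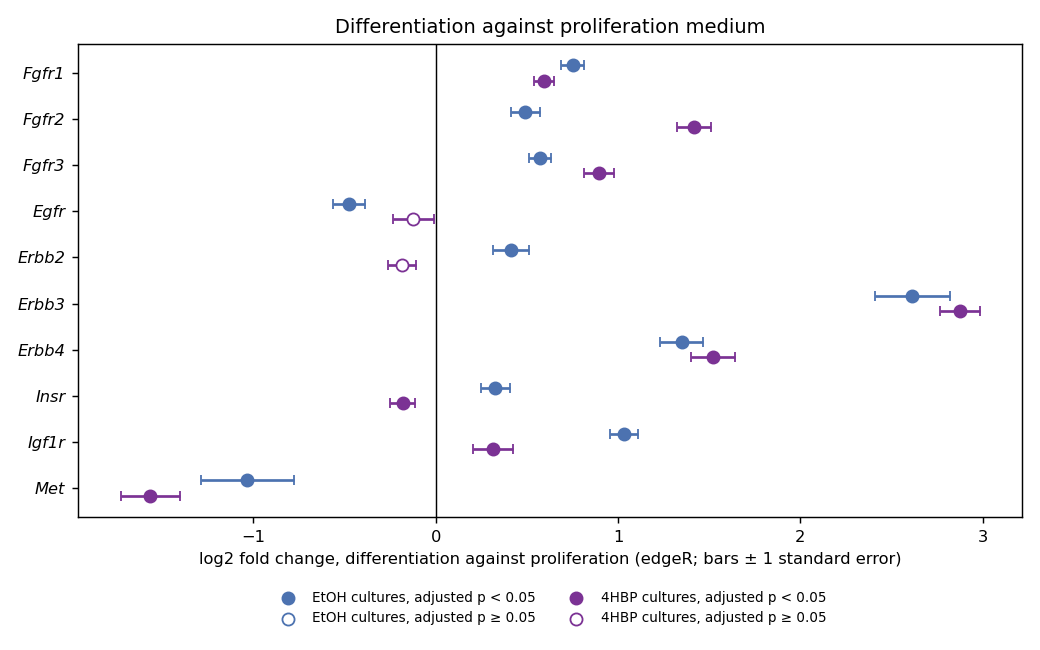
Log2 fold change of each receptor in differentiation against proliferation medium (horizontal axis, edgeR, bars ± 1 standard error) for EtOH cultures (blue, 2 against 3 libraries) and 4HBP cultures (purple, 3 against 3), with filled points where the adjusted p was under 0.05. Erbb3 lies farthest to the right in both (2.61 and 2.87) and Met farthest to the left (-1.03 and -1.56), and Fgfr2 is the receptor whose values are farthest apart (0.49 and 1.42).

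The mixture of transcripts of a receptor gene can differ where its total level does not show it. RSEM reports for each gene and library a length averaged over its transcripts by their abundance. For Fgfr1, this length was 3651 to 3726 bases in the 6 proliferation libraries and 3869 to 3911 bases in the 5 differentiation libraries, which do not overlap. For Fgfr3, it was 2237 to 2412 and 2564 to 2797 bases. Longer lengths in differentiation medium without overlap were seen for these 2 receptors, and no receptor was shorter without overlap. Of the 12614 tested genes with more than 1 annotated transcript, among which Erbb3 is not, 14.5% were longer without overlap (20.4% differed in either direction). Insr had 6381 to 8248 and 8018 to 9243 bases, which overlapped, and Erbb3, with 1 annotated transcript in the tables, had 6016 bases throughout. Within proliferation medium, the lengths of Fgfr1 in 4HBP (3660 to 3698 bases) lay inside the EtOH range, and those of Fgfr3 (2237 to 2412) spanned it. The tables give no level for single transcripts, so which isoforms differed is not shown.

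**Figure D4:**
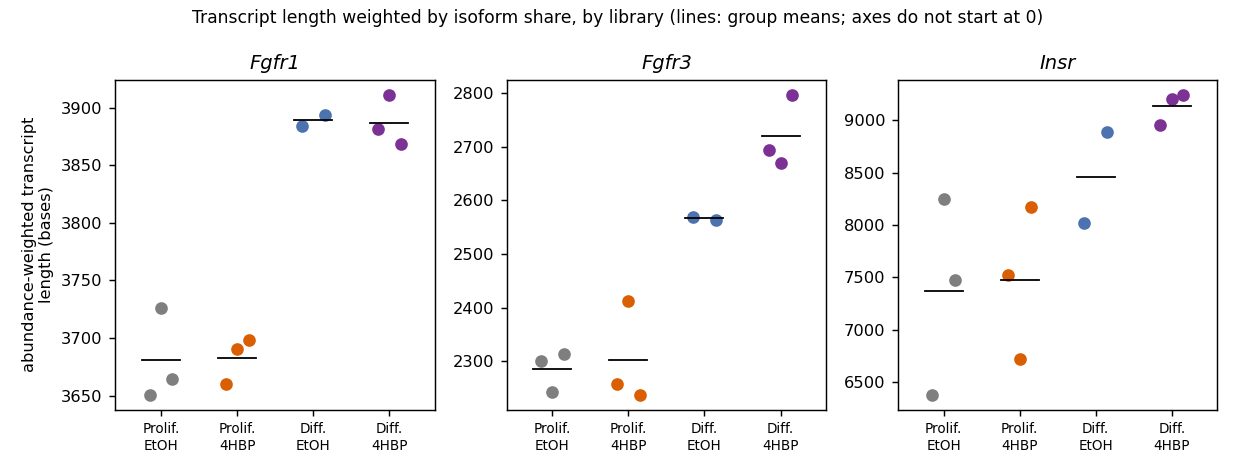
Transcript length in bases averaged over the transcripts of a gene by abundance (vertical axis, not starting at 0, with a scale of its own in each panel), by library (points), with group means (lines), for Fgfr1, Fgfr3 and Insr. The 5 differentiation libraries lie above the 6 proliferation libraries for Fgfr1 (3869 to 3911 against 3651 to 3726) and Fgfr3, and overlap them for Insr.

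The genes that act before and after the receptors were counted from lists of ligands, adaptors, signalling core, inhibitors, feedback genes and other receptor tyrosine kinases. Of the 6 ErbB ligands tested (of 11 listed), Nrg1, a neuregulin that binds Erbb3 and Erbb4, rose with 4HBP in proliferation medium from 1.16 TPM ± 0.17 to 2.96 ± 0.82 (log2 fold change 1.48, SE 0.242, adjusted p = 0.0119) and fell in differentiation medium (-0.50, SE 0.119, adjusted p = 0.0399), and these effects differed by 1.97 (adjusted p = 0.00319). Without any 1 of the 6 proliferation libraries, 0 to 1 ErbB ligands were called higher, so the call of Nrg1 did not always hold. Its fall in differentiation medium was not called with limma on log2(CPM+1) or with all 11 libraries in 1 fit. Between the media in EtOH, Nrg1 (1.87), Nrg2 (1.66) and Tgfa (0.91) were the 3 ErbB ligands that rose, and none fell. Of all tested genes, 30.8% rose and 30.7% fell there. Tgfa is named here after its value was seen. Of the 9 tested genes of the FGF ligand list (of 22), which takes in FGFs that are not secreted, Fgf11 and Fgf14, which stay inside the cell, fell with 4HBP in proliferation medium (-0.45 and -0.58, adjusted p = 0.0197 and 0.0454). Of all tested genes, 3.23% fell in that comparison. The count of 2 FGF ligands was 3 without 4HBP replicate 3, 1 without EtOH replicate 3 and 0 without 4HBP replicate 2, EtOH replicate 1 or EtOH replicate 2. Of the same 9, 5 rose and 2 fell between the media in EtOH, where 30.8% and 30.7% of all tested genes did. Fgf12 (2.46) and Fgf22 (2.91) had the largest rises. Fgf22 had at most 24 counts in any library. Of the 3 insulin, IGF and HGF ligands tested (of 5), none passed the test with 4HBP in either medium with edgeR. At an unadjusted p under 0.05, 1 was higher in proliferation medium and 0 in differentiation medium, and DESeq2 called the same numbers.

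The 7 tested IGF-binding proteins (of 9), which hold IGFs outside the cell, had both directions. With 4HBP in proliferation medium, Igfbp3 rose from 97.4 TPM ± 50.9 to 267 ± 38.9 (log2 fold change 1.42, SE 0.314, adjusted p = 0.0325), Igfbp5 fell from 121 ± 22.5 to 44.9 ± 11.1 (-1.48, SE 0.163, adjusted p = 0.00344), and the other 5 tested did not pass. Of all tested genes, 3.22% rose and 3.23% fell. Without any 1 of the 6 libraries, 0 to 1 of these proteins were called higher and 1 lower, so the Igfbp3 call did not always hold. In differentiation medium, Igfbp3 fell slightly (-0.33, SE 0.0401, adjusted p = 0.000427). That fall was not called with limma on log2(CPM+1) or with all 11 libraries in 1 fit. Between the media in EtOH, Igfbp7 rose (1.32) and Igfbp2 fell (-2.43, adjusted p = 1.11e-08). Among 22 adaptors, Irs2, which links Insr and Igf1r to PI3K, and Gab2 rose with 4HBP in proliferation medium (0.60 and 0.35, adjusted p = 0.0179 and 0.0248), and none fell. These 2 of 22 stand beside the 3.22% of all tested genes that rose. No adaptor was called without EtOH replicate 1 or 2, 1 without 4HBP replicate 2 and 3 without 4HBP replicate 3. Among 18 tested inhibitors, Grb10, which binds and restrains Insr and Igf1r, rose from 3.37 TPM ± 0.648 to 12.1 ± 3.88 (log2 fold change 1.94, SE 0.185, adjusted p = 0.00189), Socs2 and Ptprj rose too, and Grb14 fell (-0.94, adjusted p = 0.0365). Thus 3 of the 18 rose and 1 fell, where 3.22% and 3.23% of all tested genes did. Of these inhibitors, 1 was higher without 4HBP replicate 2, EtOH replicate 1 or EtOH replicate 2 and 2 without 4HBP replicate 1, and none was lower without 4HBP replicate 1 or any 1 EtOH library, while 2 were lower without 4HBP replicate 3.

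The 17 feedback genes are targets of RAS-MAPK signalling, several of which dampen it. With 4HBP in proliferation medium, 7 rose and none fell, against 3.22% of all tested genes that rose, and their median log2 fold change was 0.37. Egr1, an immediate early transcription factor, went from 33.9 TPM ± 7.60 to 89.7 ± 9.72 (log2 fold change 1.39, SE 0.144, adjusted p = 0.00288), and Dusp6, an ERK phosphatase, from 8.01 ± 1.68 to 18.2 ± 2.06 (1.24, SE 0.138, adjusted p = 0.00344). Spry1, Spry2, Spry4, Spred1 (inhibitors of the cascade) and Etv5 (a transcription factor) were the other 5, named here after their values were seen. The count was 8 without 4HBP replicate 3, but 4 without 4HBP replicate 1 and 2 without 4HBP replicate 2, EtOH replicate 1 or EtOH replicate 2, and limma on log2(CPM+1) called none, with 8 higher at an unadjusted p under 0.05. In differentiation medium, Dusp6 fell (-0.29, SE 0.0605, adjusted p = 0.0197) and no feedback gene rose. That fall was not called with limma on log2(CPM+1) or with all 11 libraries in 1 fit. The effect was larger in proliferation medium for 7 of the 17, where 2.01% of all tested genes were, and this count was 2 to 9 without single libraries. Under 4HBP, 12 of the 17 were lower and 2 higher in differentiation than in proliferation medium, where 32.9% and 32.4% of all tested genes were, and in EtOH 8 were lower and 5 higher, where 30.7% and 30.8% were.

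The kinases and small GTPases that carry the signal were counted in the same way. Of 24 RAS, MAPK and PI3K core genes, none passed the test in proliferation medium with edgeR, DESeq2 or limma on log2(CPM+1), while with edgeR 2 were higher and 3 lower at an unadjusted p under 0.05. In differentiation medium, Pik3r2, a regulatory subunit of PI3K, was the 1 that rose (0.21, adjusted p = 0.0238), where 1.23% of all tested genes did. It was not called with limma on log2(CPM+1) or with all 11 libraries in 1 fit. Between the media in EtOH, 10 rose and 6 fell, or 16 of 24, where 61.5% of all tested genes passed, with Rictor (0.93) and Pik3r3 (0.85) the largest rises and Nras (-0.50) the largest fall. Of the 33 other receptor tyrosine kinases tested (of 48), none rose and 3 fell with 4HBP in proliferation medium (3.23% of all tested genes fell), namely Tyro3 (-0.56, adjusted p = 0.0122), Ephb3 (-0.49, adjusted p = 0.0239) and Axl (-0.44, adjusted p = 0.0115), of which Axl is named after its value was seen, and none passed in differentiation medium, where 1 was higher and 2 lower at an unadjusted p under 0.05 and DESeq2 also called none. The count of 3 was 5, with 1 higher, without 4HBP replicate 3, 3 with 1 higher without 4HBP replicate 1, 2 without 4HBP replicate 2, and 0 without EtOH replicate 1 or 2, and limma on log2(CPM+1) called none, with 6 higher and 6 lower at an unadjusted p under 0.05. Between the media in EtOH, 10 of the 33 rose and 8 fell, where 30.8% and 30.7% of all tested genes did. The largest rise was that of Pdgfrb, the PDGF receptor beta (5.29, SE 0.322), and the largest fall that of Flt1, a VEGF receptor (-2.91, SE 0.284).

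**Figure D5:**
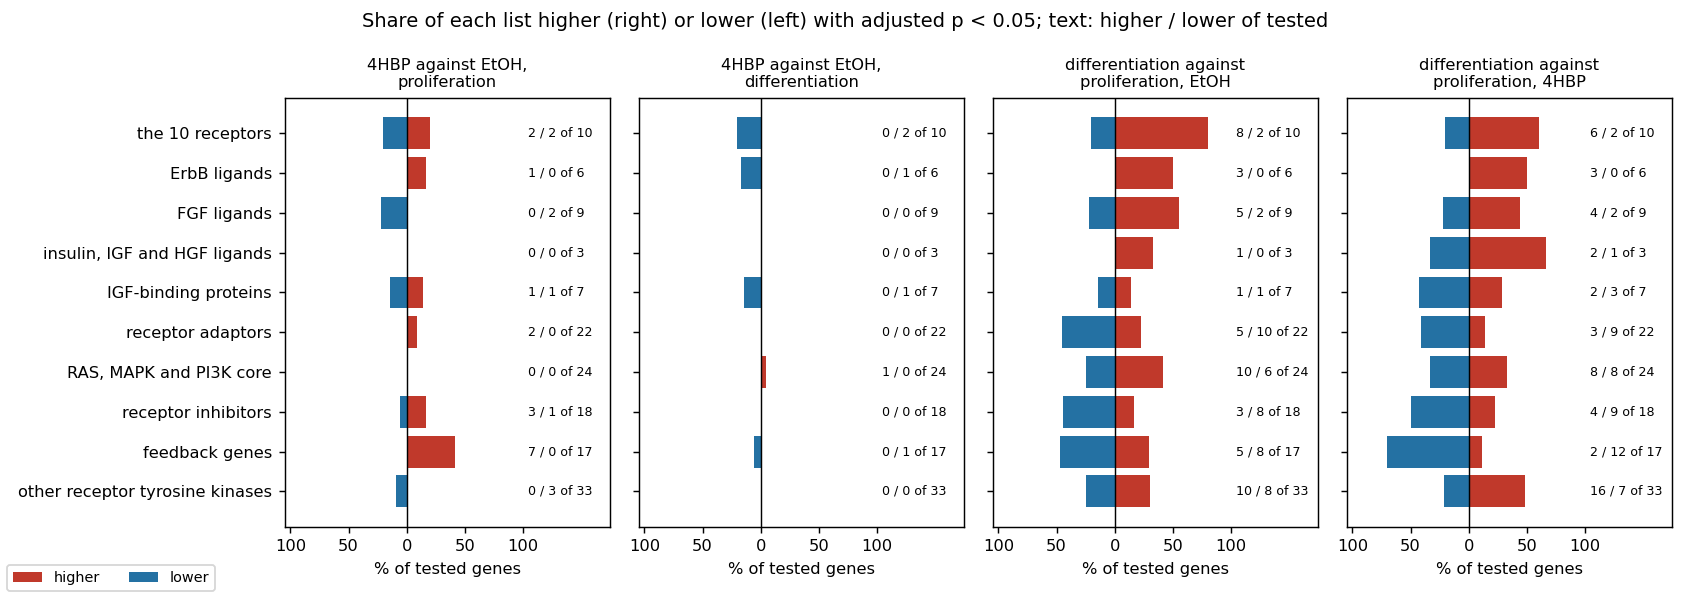
Share of the tested genes of each list (horizontal axis, in percent) that were higher (red, to the right) or lower (blue, to the left) at an adjusted p under 0.05 in each of 4 comparisons, with the counts beside the bars. With 4HBP in proliferation medium, 7 of 17 feedback genes are higher and none is lower, and the 24 core genes show no bar, whereas most lists have bars on both sides between the media.

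The genes whose levels followed each receptor most closely over the 11 libraries were found by Pearson's r of log2 CPM, as a description, since the media part the libraries and genes that differ between them correlate with one another. For Erbb3, these were Nrg2 (r = 0.998) and Glycam1 (0.997), and for Erbb4, Cadm2 (0.997) and Gpr17 (0.997), the latter a receptor of oligodendrocyte precursors. Fgfr3 was followed by Rcan2 (0.998) and Rilpl2 (0.996), Fgfr1 by Gldc (0.992), and Fgfr2 by Cdh20 (0.990) and Ccdc85a (0.989). The highest values were lower for the others, with Son (0.986) and Rnf13 (0.972) for Igf1r, Ntng1 (0.977) and Cmtm4 (0.977) for Met, Apcdd1 (0.956) and Exd1 (0.953) for Egfr, Tnks2 (0.955) and Ifrd1 (0.949) for Insr, and Atf5 (0.948) and Cntnap3 (0.944) for Erbb2. An r above 0.95 was found for 1343 genes with Erbb3, 1295 with Erbb4 and 1067 with Fgfr1, and for none with Erbb2.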

How the data were processed

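Messenger RNA went into 11 stranded paired-end libraries. The authors trimmed reads with cutadapt and quantified them with RSEM 1.3.0 and Bowtie2 2.2.9 against GRCm38 (mm10) with GENCODE genes. They deposited a table per library, with RSEM's expected counts per gene without normalization, TPM values scaled for length and depth, the abundance-weighted transcript length in bases, and FPKM values, which were not used. Replicates were not pooled. Symbols and positions came from GENCODE vM21 of the same build, which matched 99.8% of the identifiers, and promoter windows from RefSeq. The deposited transcript lengths are estimates whose precision depends on the counts behind them.

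The 10 receptors and all gene lists were chosen with earlier results of these data known. The expected counts, rounded to integers, passed through filterByExpr with the 4 groups (minimum count 10) and were normalized by TMM over 11 libraries and tested with edgeR 4.0.16 (glmQLFit and glmQLFTest, R 4.3.3), fitted to the groups compared, or to all 11 libraries for the interaction. P-values were two-sided and adjusted by Benjamini-Hochberg over 15920 genes, with a threshold of 0.05, and the SE is the log2 fold change divided by the square root of F. Limma on the study's scale of log2(CPM+1), with p-values adjusted as above, was an alternative (limma 3.58.1). Others were DESeq2 1.42.0, voom, other scalings and filters, a block for the replicate number, and fits that omit 1 library. TPM gave the levels, since genes can be compared only per length. Named list genes are, per list and comparison, at most 2 higher and 2 lower with the largest changes among those called without overlap, unless the text says otherwise, and likeness is the 2 highest Pearson correlations per receptor. A gene that these rules pick in 1 list and 1 for Fgfr1 are not reported here. The tests were tested on simulated data with 200 genes changed 2-fold. Tables were handled with pandas 2.3.3 (Python 3.11.15). Counting floors cover counting error only.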

Additional observations from a re-analysis of the deposited data

Results flagged for a closer look

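The effect of 4HBP differed between proliferation and differentiation medium for 715 of the 15920 genes tested (edgeR's test of that difference, adjusted p under 0.05). The 4 receptors among them are given here, with at most 2 genes per direction from each list of ligands and signalling genes, those with the largest differences. Among the receptors, the difference of the log2 effects, proliferation minus differentiation, was -0.92 for Fgfr2, 0.71 for Igf1r, 0.60 for Erbb2 and 0.51 for Insr. Among the genes of the ligand and binding protein lists, it was 1.97 for Nrg1, -0.83 for Fgf1, -0.58 for Fgf11 (which stays inside the cell), 1.75 for Igfbp3 and -1.47 for Igfbp5. Fgf1, which binds all FGF receptors, passed in neither medium alone (log2 fold changes -0.62 and 0.21, adjusted p = 0.0536 and 0.0732), and its difference between the media had an adjusted p of 0.0449. Among adaptors and inhibitors, the difference was 0.72 for Irs2, 0.53 for Shc1, 1.76 for Grb10 and 0.62 for Ptprj. Dusp6 (1.53) and Egr1 (1.51) were the feedback genes with the largest differences, and Tyro3 (-0.61) and Ephb3 (-0.60) were the largest of 3 other receptor tyrosine kinases, the third being Axl (-0.54). Of the 10 astrocyte markers, 5 had a more negative effect in proliferation medium, where 2.48% of all tested genes did. The part of these markers in the differences above was not tested. Of the 715 genes, 217 were also called with limma on log2(CPM+1) and 151 in a fit with a replicate block. Without 1 of the 3 4HBP libraries of differentiation medium, 297 to 303 of them were called. Calls of the list genes named here may thus depend on the fit and on single libraries. Groups of 2 or 3 libraries are too small to test for single outlying libraries.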

How the results depend on the processing

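The number of receptors called with 4HBP in proliferation medium, 4 in the main test, was 1 with limma on log2(CPM+1) or log2(CPM+0.1), 2 with voom weights, 1 with an absolute log2 fold change over 0.58 added, and 1 to 4 without single libraries. In differentiation medium, the count of 2 became 0 with either limma scale, with all 11 libraries in 1 fit and with the fold threshold, and 1 to 2 without single libraries. Between the media in EtOH, the count of 10 became 5 with the fold threshold and 8 to 10 without single libraries, and under 4HBP the count of 8 became 6 to 9. For the interaction, the count of 4 became 2 and 1 on the limma scales and 1 to 5 without single libraries. DESeq2, its size factors, library totals alone and no filter on low counts kept each of these counts of receptors within 1.5 times. The cause of these changes was not tested. Over all genes tested, 1027 were called with 4HBP in proliferation medium, against 1605 with DESeq2, 67 and 56 on the limma scales, 539 with the block and 2668 with all 11 libraries, and 362 in differentiation medium, against 798 without a filter, 0 and 147 on the limma scales (3129 and 2685 at an unadjusted p under 0.05), 795 with the block and 0 with all 11 libraries. For the interaction, 715 were called, against 1078 with DESeq2, 1615 without a filter, 264 and 157 on the limma scales and 156 with the block. On CPM per kilobase, 3 pairs of neighbouring receptor levels overlapped, against 5 in TPM.

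The labels do not say whether the replicate numbers pair the libraries, and the main tests treated the libraries as unpaired. The deviations of same-numbered libraries from their group means correlated by 0.00533, -0.0154 and -0.0612 between the treatments in proliferation medium, and by 0.018 and 0.00809 in the other medium. In fits with a replicate block, 1 receptor was called with 4HBP in proliferation medium (Fgfr2), 3 in differentiation medium, 10 and 7 between the media in EtOH and 4HBP, and 0 for the interaction, where Fgfr2 had an adjusted p of 0.0578, Insr of 0.0678, Erbb2 of 0.105 and Igf1r of 0.129.

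Signs turned for small, uncalled values without single libraries. Fgfr1 with 4HBP in proliferation medium ranged from -0.0234 (without EtOH replicate 1) to 0.0471, Met in differentiation medium from -0.41 to 0.21 (without EtOH replicate 1), and Egfr between the media under 4HBP from -0.214 to 0.0402 (without 4HBP replicate 3 of proliferation medium). As log2 ratios of mean TPM, an alternative added after the data were seen, Egfr was at -0.0205 with 4HBP in differentiation medium, and at 0.023 and 0.27 between the media in EtOH and 4HBP, and Erbb2 at 0.15 between the media under 4HBP. With 2 EtOH libraries in differentiation medium, small changes there rest on few values, and Erbb3 and Met rest on at most 80 and 381 counts per library in proliferation medium.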
